A study of Rattus norvegicus with 3 samples.

Results

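A set of 10 genes of iron handling and of the defence against ferroptosis was followed in rat retina, chosen by name: Tfrc, Tf, Fth1, Ftl1, Slc40a1, Slc11a2, Gpx4, Acsl4, Steap1 and Aifm2. All of them were found among the 32883 genes of each table, each in a single row, so no choice between repeated rows was needed. Each of the 3 libraries held total RNA, depleted of ribosomal RNA, from Sprague-Dawley rat retina at postnatal day 60. The HIOP_GSK library came from retina in which a drug named only as GSK was injected into the anterior chamber 24 h before ischemia, and ischemia followed as in HIOP. In the HIOP library the pressure in the eye was raised to 110 mmHg for 60 min and then lowered, and the retina was labelled as taken 12 h after ischemia. The CTL library is labelled as untreated, while the protocol describes sham-operated animals with a needle in the anterior chamber at 2.66 kPa, so which of these CTL was remains unsettled. The labels do not identify the drug or its dose, describe no eye injected with vehicle and do not say how many animals or eyes each library pooled, which limits each library as a model of its condition.

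Iron travels in blood and tissue fluid bound to transferrin, enters cells through the transferrin receptor, is reduced in endosomes and is carried into the cytosol by a divalent metal transporter. Iron that is not used is stored inside ferritin, a shell of heavy and light chains, or exported by ferroportin. Ferroptosis is a form of cell death in which iron-dependent peroxidation damages phospholipids that carry polyunsaturated fatty acids, and it is held back by enzymes that reduce lipid peroxides or trap lipid radicals. In the retina, photoreceptor outer segments are rich in such fatty acids, and Müller glia and pigment epithelium take part in iron transport.

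With 1 library per group there was no replicate check, and no test or p-value is given. Folds are ratios of counts scaled to library size, each with an exact 95% interval from the 2 counts, which covers counting error only. Below, genes are called higher or lower where they differ by 2-fold or more on the log2 CPM scale (CPM, the counts scaled to a common library size, with a prior count of 2). The libraries held 15132754 counts in HIOP_GSK, 17221510 in HIOP and 16090064 in CTL, and 15543 genes were compared, those with a CPM of 1 or more in any library. Of the 10 genes, 9 passed that filter, and all 9 had a CPM above 1 in every library, so none was kept only through the library where it was high. The 9 rod markers examined, which stand for the labelled tissue, were all detected and together took 1.93% of counts in HIOP_GSK, 2.66% in HIOP and 2.79% in CTL.

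Both ferritin chains were highest in HIOP_GSK and lowest in CTL, and they spanned a wider range than the defence genes Gpx4 and Aifm2 or the lipid enzyme gene Acsl4. Of the 9 genes, Steap1, Slc11a2 and Fth1 were called higher in HIOP than in CTL and none was called lower. Among all genes compared, 9.0% were called higher and 8.04% called lower in that comparison. In HIOP_GSK over HIOP, Ftl1 was the 1 gene of the 9 called higher and none was called lower, where 4.56% and 1.69% of all genes were (6.25% in either direction). In HIOP_GSK over CTL, Fth1, Ftl1 and Steap1 were called higher, where 10.4% of all genes were, and none was called lower, where 6.32% of all genes were. The median log2 ratio of the 9 genes was 0.22 for HIOP_GSK over HIOP, beside -0.0024 for all genes compared, and 0.42 for HIOP over CTL, beside 0.0042. These genes were chosen with earlier results of these data known, so their standing beside all genes is not independent of that choice. The 3 comparisons share libraries, so they are not independent of each other.

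**Figure D1:**
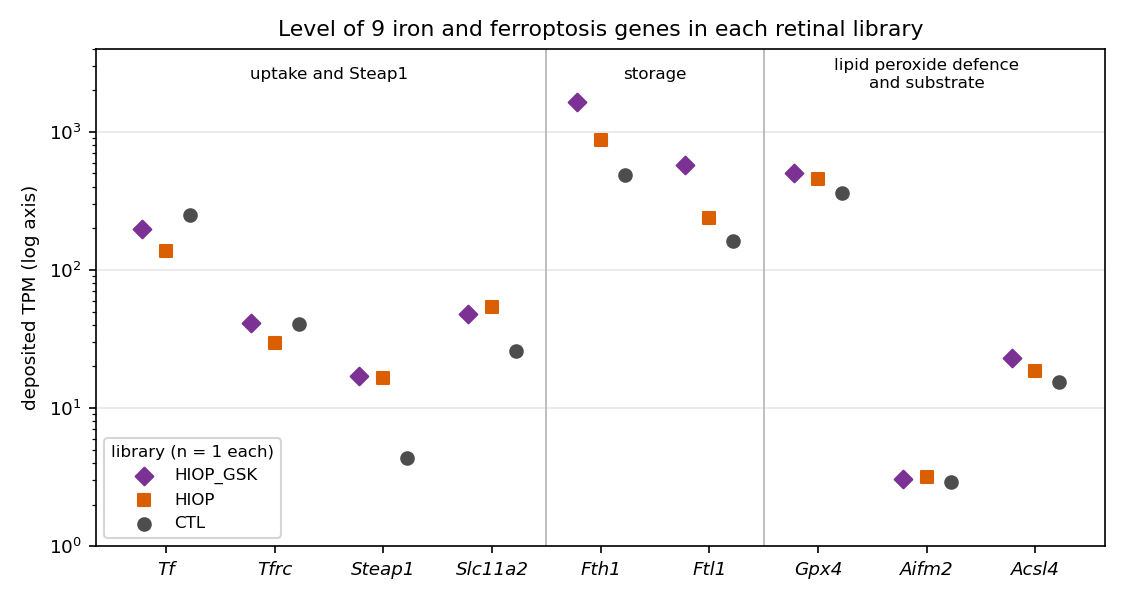
Deposited TPM on a log axis for 9 genes in the HIOP_GSK, HIOP and CTL libraries, 1 point per library, grouped by role. The ferritin genes Fth1 and Ftl1 are highest in HIOP_GSK, lower in HIOP and lowest in CTL, Steap1 is lowest in CTL, and Aifm2 sits near 3 TPM in each library.

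Transferrin and its receptor were the 2 genes with lower counts per library size in HIOP than in CTL. Tf, which encodes the iron carrier transferrin, had 5223 counts in HIOP_GSK, 4343 in HIOP and 6398 in CTL, or 198 TPM, 138 TPM and 249 TPM (TPM, a level corrected for transcript length). It was lowest in HIOP, at 0.638-fold of CTL (0.614 to 0.663), and 84.2% of all genes compared had a larger ratio. HIOP_GSK stood between the others, at 1.35-fold of HIOP (1.3 to 1.41) and 0.864-fold of CTL (0.832 to 0.896).

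Markers of the pigment epithelium and of Müller glia were also lower in HIOP than in CTL, which is given here because the pigment epithelium is known to make transferrin and Müller glia take part in iron transport. All 7 compared genes of the pigment epithelium list were called lower in HIOP than in CTL, where 8.04% of all genes were. The list summed to 220 CPM in HIOP_GSK, 157 CPM in HIOP and 441 CPM in CTL. The Müller glia list had 12 genes, 7 called lower and 1 called higher in HIOP, and the list summed to 3285 CPM in HIOP_GSK, 2656 CPM in HIOP and 4745 CPM in CTL. None of the matched markers of these lists was at 0 in any library. The myelin list, another known source of Tf transcript, summed to 64.2 CPM in HIOP_GSK, 42.9 CPM in HIOP and 59.3 CPM in CTL, with Mobp and Olig2 at 0 counts in HIOP and Olig2 also at 0 in CTL. The part of these cell types in the Tf values was not tested. In bulk retina, fewer cells of a type and less RNA per cell cannot be told apart.

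Tfrc, the receptor that takes up iron-loaded transferrin, had 2329 counts in HIOP_GSK, 1932 in HIOP and 2209 in CTL (41.6 TPM, 29.5 TPM and 40.7 TPM). It was 0.822-fold of CTL in HIOP (0.773 to 0.875) and 1.36-fold of HIOP in HIOP_GSK (1.28 to 1.44), so HIOP was again the lowest of the libraries. HIOP_GSK stood slightly above CTL, at 1.12-fold (1.05 to 1.18). The TPM ratio of Tf to Tfrc was 4.76 in HIOP_GSK, 4.68 in HIOP and 6.13 in CTL.

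Steap1 and Slc11a2 were both called higher in HIOP than in CTL, and in HIOP_GSK over CTL Steap1 was while Slc11a2 stayed under the limit. Steap1, a membrane protein of the metalloreductase family whose other members reduce iron and copper, had 202 counts in HIOP_GSK, 253 in HIOP and 53 in CTL (17.2 TPM, 16.5 TPM and 4.36 TPM). It was 4.49-fold higher in HIOP than in CTL (3.33 to 6.16), the largest ratio of the 9 genes in that comparison, and 3.13% of all genes compared had a larger one. HIOP_GSK differed from HIOP by no more than counting error, at 0.898-fold (0.743 to 1.09), and stood 4.03-fold above CTL (2.97 to 5.56).

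Slc11a2, the divalent metal transporter that moves ferrous iron out of endosomes, had 2142 counts in HIOP_GSK, 3051 in HIOP and 1189 in CTL (48.2 TPM, 53.9 TPM and 26.1 TPM). It was 2.41-fold higher in HIOP than in CTL (2.26 to 2.58), with 6.70% of all genes above it. In HIOP_GSK it was 0.790-fold of HIOP (0.747 to 0.835) and 1.91-fold of CTL (1.77 to 2.05), under the 2-fold limit on the log2 scale at 0.93. Slc11a2 stood above Tfrc in the injured libraries and below it in CTL: the TPM ratio of Slc11a2 to Tfrc was 1.16 in HIOP_GSK, 1.83 in HIOP and 0.641 in CTL.

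The promoters of Tfrc, Steap1 and Slc11a2 are shown because Steap1 and Slc11a2 were called higher in HIOP than in CTL, whereas Tfrc, which acts with Slc11a2 in iron uptake, was below CTL. The sequences are RefSeq's, on the build GRCr8, matched by symbol, and hold the 250 bases before each annotated start, written 5′ to 3′ on the gene's strand. Capitals mark the only matches found on either strand to ACGTG, the core of the hypoxia response element, or to TGACNNNGC, the core of the antioxidant response element. No match overlapped another. Slc11a2 has 2 annotated starts, and the gene counts do not separate them.
Tfrc (chr11:81690319-81690568, minus strand): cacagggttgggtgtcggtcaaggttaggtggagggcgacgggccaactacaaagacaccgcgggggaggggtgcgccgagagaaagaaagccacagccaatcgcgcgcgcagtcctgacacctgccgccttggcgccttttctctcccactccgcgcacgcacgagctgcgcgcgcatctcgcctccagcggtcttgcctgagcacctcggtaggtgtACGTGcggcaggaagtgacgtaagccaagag
Steap1 (chr4:29231559-29231808, plus strand): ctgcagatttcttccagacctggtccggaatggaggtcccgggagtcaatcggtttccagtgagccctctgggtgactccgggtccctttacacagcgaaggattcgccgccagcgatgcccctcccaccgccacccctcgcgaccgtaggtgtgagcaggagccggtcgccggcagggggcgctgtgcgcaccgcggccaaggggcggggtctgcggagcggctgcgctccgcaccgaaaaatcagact
Slc11a2, upstream start (chr7:133418940-133419189, minus strand): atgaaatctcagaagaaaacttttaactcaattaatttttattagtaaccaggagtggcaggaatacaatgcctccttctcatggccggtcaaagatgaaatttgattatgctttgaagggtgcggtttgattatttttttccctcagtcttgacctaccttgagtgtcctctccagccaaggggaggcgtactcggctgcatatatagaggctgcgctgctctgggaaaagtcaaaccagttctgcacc
Slc11a2, downstream start (chr7:133417789-133418038, minus strand): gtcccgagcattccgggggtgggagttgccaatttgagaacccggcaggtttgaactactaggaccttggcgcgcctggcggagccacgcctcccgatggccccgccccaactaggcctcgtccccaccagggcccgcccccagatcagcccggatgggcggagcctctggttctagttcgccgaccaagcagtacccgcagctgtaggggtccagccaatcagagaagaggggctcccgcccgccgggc
One match was found in these 4 windows, an ACGTG on the gene's strand that begins 31 bases before the Tfrc start. Across the 33469 promoter windows of that table, 16.6% held ACGTG and 10.1% held TGACNNNGC on either strand. Of the 10 genes, 8 had a promoter entry, all but Fth1 and Ftl1, and Tfrc was the 1 gene of these 8 with a match to either core. Slc40a1, Tf, Gpx4, Acsl4 and Aifm2 had none in the same window. The loop of the iron-responsive element was sought on the gene's strand in the 50 bases after the start. There 1.60% of all windows and 1.80% of all genes held it, and none of these 8 genes did. The rest of each transcript was not searched, so this does not show that any of these messages lacks the element. A match describes the letters, not binding, and a missing match speaks of these windows alone.

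The ferritin genes showed the widest spread of all abundant members. Fth1, the heavy chain that oxidises iron on entry into the shell, had 13250 counts in HIOP_GSK, 8632 in HIOP and 3930 in CTL (1639 TPM, 868 TPM and 487 TPM). It was 2.07-fold higher in HIOP than in CTL (1.99 to 2.15), with 8.50% of all genes above it. With the deposited TPM this ratio was 1.78 and no longer past 2-fold. In HIOP_GSK it was 1.73-fold of HIOP (1.68 to 1.77) and 3.57-fold of CTL (3.44 to 3.70).

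Ftl1, the light chain that promotes mineral formation inside the shell, had 4153 counts in HIOP_GSK, 2059 in HIOP and 1125 in CTL (573 TPM, 238 TPM and 162 TPM). It was 1.72-fold of CTL in HIOP (1.60 to 1.85), under the limit. In HIOP_GSK it was 2.27-fold higher than in HIOP (2.15 to 2.39), and 3.39% of all genes compared had a larger ratio. Against CTL it was 3.91-fold higher in HIOP_GSK (3.66 to 4.17).

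The proportion of the chains to each other and to the receptor differed between libraries. The TPM ratio of Fth1 to Ftl1 was 2.86 in HIOP_GSK, 3.65 in HIOP and 3.00 in CTL. The TPM ratio of Fth1 to Tfrc was 39.4 in HIOP_GSK, 29.4 in HIOP and 12.0 in CTL, and that of Ftl1 to Tfrc was 13.8, 8.08 and 3.99 in the same libraries. Such ratios are taken within a library and do not depend on how libraries are scaled to each other. As background, iron regulatory proteins bind elements in the messages of ferritin and of the receptor and act on them in opposite directions, on translation for ferritin and on message stability for Tfrc, and neither was measured here. The 2 ferritin genes together took 0.115% of counts in HIOP_GSK, 0.0621% in HIOP and 0.0314% in CTL.

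**Figure D2:**
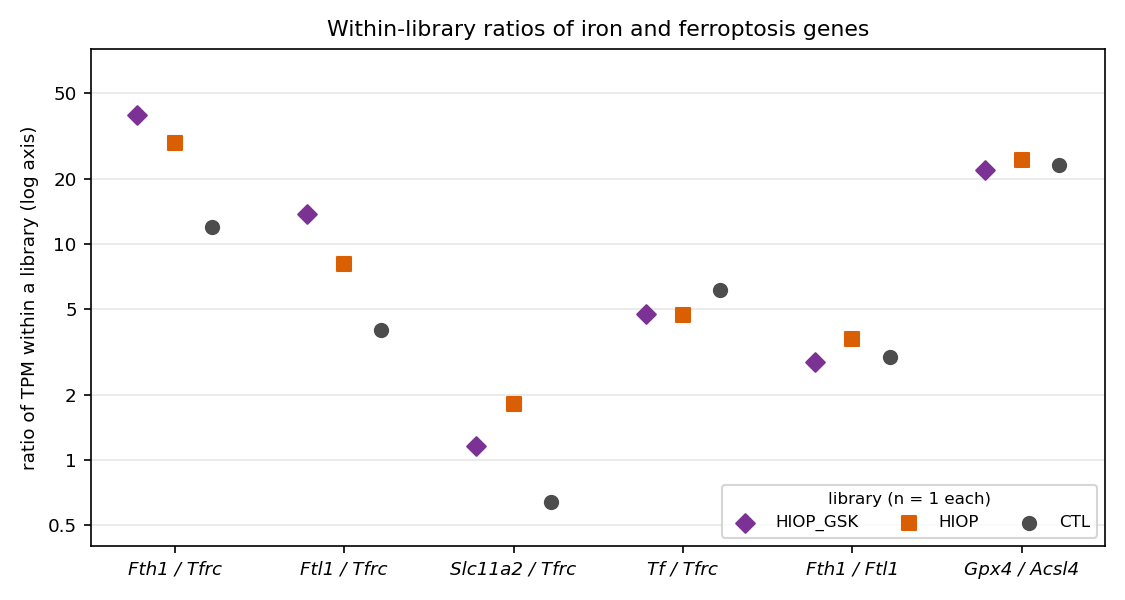
Ratio of TPM between pairs of genes within each library, on a log axis, 1 point per library. Fth1 to Tfrc is 39.4 in HIOP_GSK, 29.4 in HIOP and 12.0 in CTL, whereas Gpx4 to Acsl4 lies between 22.0 and 24.6.

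Genes of the lens and of microglia and macrophages, a cell type known for high ferritin, were higher in HIOP_GSK together with ferritin. Each of the 13 lens genes was called higher in HIOP_GSK than in HIOP, and the list summed to 13710 CPM in HIOP_GSK, 3287 CPM in HIOP and 1152 CPM in CTL, with none at 0. Of 11 microglia and macrophage genes compared, 10 were called higher in HIOP_GSK than in HIOP, where 4.56% of all genes were. Trem2, among the 10, reached a CPM of 1 in HIOP_GSK alone, so its call follows in part from how it was kept. The microglia and macrophage list summed to 130 CPM in HIOP_GSK, 47.4 CPM in HIOP and 42.6 CPM in CTL, with none at 0. Neutrophil and monocyte genes summed to 158 CPM in HIOP_GSK, 142 CPM in HIOP and 1.68 CPM in CTL, where 9 of 12 markers, S100a8 and Cxcr2 among them, were at 0. In HIOP_GSK Mpo and Fpr1 were at 0, and in HIOP Mpo and Elane. The part of these tissues in the ferritin values was not tested.

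Ferritin genes have many processed copies, so the split of their reads is uncertain. The RefSeq table lists 34 ferritin family loci, of which 5 were matched to rows of the files. Besides Fth1 and Ftl1 these were Ftl1l2, with 16 counts in HIOP_GSK, 18 in HIOP and 10 in CTL, LOC100360087 with 7, 1 and 2 counts in the same libraries, and Fthl17e, listed at 0 in each.

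Slc40a1, which encodes ferroportin, the iron exporter, was listed at 0 counts and 0 TPM in HIOP_GSK, HIOP and CTL. A floor of 3 counts corresponds to 0.197 CPM in HIOP_GSK, 0.175 CPM in HIOP and 0.186 CPM in CTL. Rps6, a ribosomal protein gene, and Hprt1, a purine salvage gene, are active in nearly every cell and were also listed at 0 counts and 0 TPM in each library. A 0 in these tables therefore does not show that a gene was silent, and no fold is given for Slc40a1.

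Gpx4 and Aifm2, both guards against lipid peroxidation, were within 2-fold in each of the 3 comparisons. Gpx4, the selenoenzyme that reduces phospholipid hydroperoxides, had 4256 counts in HIOP_GSK, 4326 in HIOP and 3042 in CTL (506 TPM, 453 TPM and 359 TPM). It was 1.34-fold of CTL in HIOP (1.28 to 1.40) and 1.11-fold of HIOP in HIOP_GSK (1.06 to 1.15). CTL was the lowest library, and 21.9% of all genes had a larger ratio in HIOP over CTL, so the difference was beyond counting error but common in size.

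Aifm2, also called FSP1, which regenerates the lipid radical trap ubiquinol, had 148 counts in HIOP_GSK, 169 in HIOP and 124 in CTL (3.04 TPM, 3.19 TPM and 2.92 TPM). Its ratio was 1.28 in HIOP over CTL (1.01 to 1.63) and 0.985 in HIOP_GSK over HIOP (0.785 to 1.24). The TPM ratio of HIOP over CTL was 1.09, so the libraries were close on either measure. In CTL, 74.7% of genes compared had a higher TPM than Aifm2.

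Acsl4, which loads arachidonic and related fatty acids into the lipids that ferroptosis oxidises, had 1367 counts in HIOP_GSK, 1322 in HIOP and 958 in CTL (23.1 TPM, 18.5 TPM and 15.5 TPM). It was 1.3-fold of CTL in HIOP (1.19 to 1.41) and 1.16-fold of HIOP in HIOP_GSK (1.08 to 1.26). CTL was again the lowest, and the ratio in HIOP_GSK over CTL was 1.51 (1.39 to 1.64), close to that of Gpx4 at 1.48 (1.41 to 1.55). The TPM ratio of Gpx4 to Acsl4 was 22.0 in HIOP_GSK, 24.6 in HIOP and 23.2 in CTL.

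**Figure D3:**
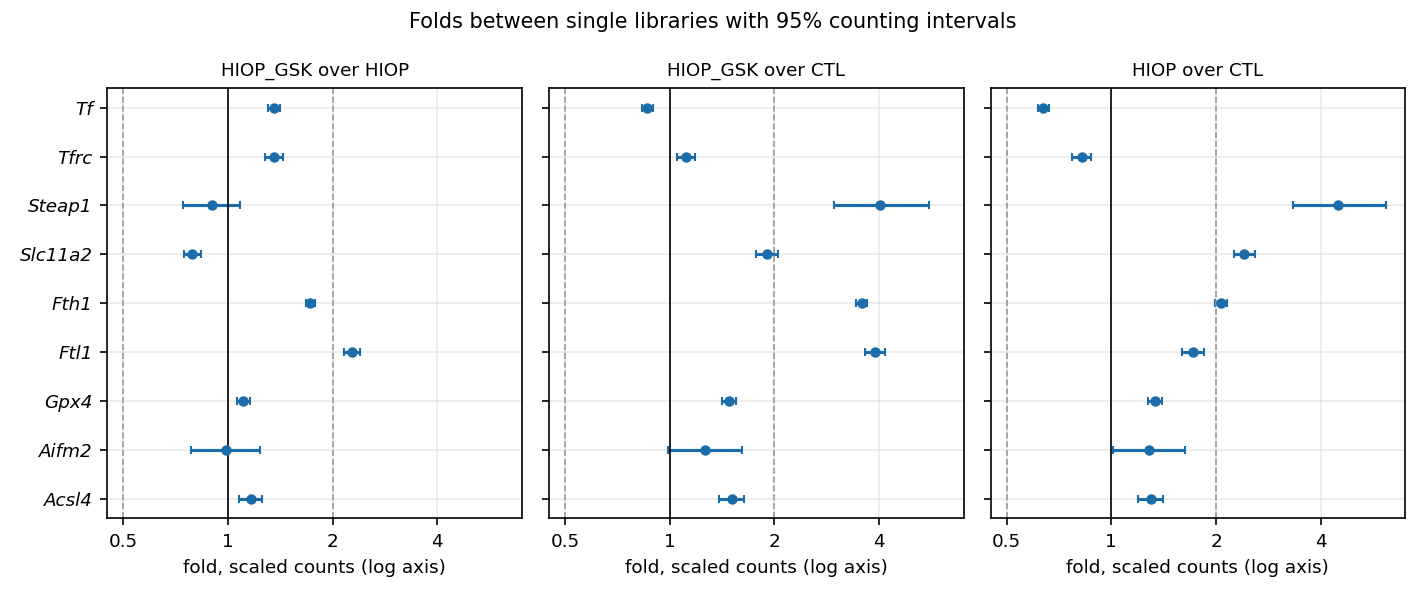
Fold of scaled counts on a log axis for 9 genes in HIOP_GSK over HIOP, HIOP_GSK over CTL and HIOP over CTL, with bars for the 95% counting interval and dashed lines at 2-fold in either direction. Steap1, Slc11a2 and Fth1 lie past 2-fold in HIOP over CTL, and Ftl1 alone does in HIOP_GSK over HIOP.

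Within each library the levels spanned from Fth1 at the top to Aifm2 at the bottom of the 9 genes. On TPM, the order in HIOP_GSK was Fth1, Ftl1, Gpx4, Tf, Slc11a2, Tfrc, Acsl4, Steap1 and Aifm2. In HIOP Gpx4 stood above Ftl1, and the order was otherwise that of HIOP_GSK. In CTL the order was Fth1, Gpx4, Tf, Ftl1, Tfrc, Slc11a2, Acsl4, Steap1 and Aifm2. Fth1 ranked 38 among all rows by TPM in HIOP_GSK, 53 in HIOP and 108 in CTL, and Ftl1 ranked 118, 290 and 438 in the same libraries. With 1 library per group, neighbours in these orders have no spread against which to set their difference.

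The rest of the pathway was described with 10 lists of 138 other genes, of which 125 were compared. In HIOP over CTL 22 of them (17.6%) were called higher and 7 (5.60%) called lower, beside 9.0% and 8.04% of all genes. Their median log2 ratio was 0.11. Of those called lower, Cbs and Ttpa passed the CPM filter only through CTL. In HIOP_GSK over HIOP 5 (4.0%) were called higher and 2 (1.60%) called lower, beside 4.56% and 1.69% of all genes, with a median of -0.02. The lists include genes that earlier results of these libraries had already shown to differ, such as Hmox1, Lcn2 and Ptgs2.

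Of 15 genes for iron uptake, export and its hormones, 4 (26.7%) were called higher and 2 (13.3%) called lower in HIOP than in CTL. Among all genes these shares were 9.0% and 8.04%, and the list's median log2 ratio was -0.55. Cp, ceruloplasmin, the copper oxidase that loads iron onto transferrin, had 10049 counts in HIOP_GSK, 11901 in HIOP and 2282 in CTL. It was 4.90-fold higher in HIOP than in CTL (4.69 to 5.13), opposite to Tf. Hephl1, a related copper oxidase, had 120 counts in HIOP_GSK, 39 in HIOP and 230 in CTL. It was 6.27-fold lower in HIOP than in CTL (4.45 to 9.05) and 3.46-fold above HIOP in HIOP_GSK (2.39 to 5.10). The list of corneal and surface epithelium, tissue outside the retina, had the same order of libraries, with sums of 70.4 CPM in HIOP_GSK, 18.2 CPM in HIOP and 276 CPM in CTL. Of its 7 compared genes, 6 were called higher in HIOP_GSK than in HIOP, where 4.56% of all genes were. In HIOP over CTL 6 were called lower, and Kera was at 0 counts in HIOP. Kera and Tp63 reached a CPM of 1 in CTL alone, so their lower calls follow in part from how they were kept. Krt12, a keratin of the corneal epithelium, had 249 counts in HIOP_GSK, 56 in HIOP and 1950 in CTL. The part of this tissue in the Hephl1 values was not tested. The endothelium list summed to 380.1 CPM in HIOP_GSK, 342 CPM in HIOP and 649 CPM in CTL, with none at 0. Kdr alone held 4815 of its 5784 counts in HIOP_GSK, 5124 of 5849 in HIOP and 9171 of 10445 in CTL. Of its 7 compared genes, 3 were called lower and 0 higher in HIOP than in CTL, and Cdh5 was 1.78-fold of CTL in HIOP. The orbital gland list summed to 231 CPM in HIOP_GSK, 299.8 CPM in HIOP and 439.8 CPM in CTL, with Ltf, Oprpn and Scgb2a1 at 0 in each library and Obp2a at 0 in HIOP_GSK and HIOP. Cst3 alone held 3289 of its 3512 counts in HIOP_GSK, 4948 of 5132 in HIOP and 6785 of 7079 in CTL. The sum thus follows 1 gene and does not measure gland tissue.

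Bmp2, a growth factor that induces the iron hormone hepcidin in liver, was 3.24-fold higher in HIOP than in CTL (2.74 to 3.85) and 2.28-fold lower in HIOP_GSK than in HIOP (1.96 to 2.66). Slc39a14, a transporter of iron that is not bound to transferrin, was 2.10-fold higher in HIOP than in CTL (1.90 to 2.33), and its log2 ratio with the deposited TPM was 0.996, just inside the limit. Scara5, a ferritin receptor in mouse kidney, had 2.10 times the HIOP level in HIOP_GSK (1.53 to 2.92), which was inside the limit with the deposited TPM and with a prior count of 10. Cubn, an endocytic receptor for transferrin in kidney, was 2.45-fold lower in HIOP than in CTL (1.67 to 3.67), also inside the limit with the deposited TPM.

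Steap4, a metalloreductase of the Steap1 family, had 819 counts in HIOP_GSK, 1227 in HIOP and 47 in CTL. It was 24.5-fold higher in HIOP than in CTL (18.3 to 33.6). The other 4 reductases, Steap2 and Steap3 among them, were within 2-fold in both comparisons. Steap2 had 928 counts in HIOP_GSK, 1048 in HIOP and 832 in CTL, and Steap3, the main endosomal iron reductase of red blood cell precursors, had 112, 106 and 125 counts in the same libraries. The difference from CTL within this family was thus seen in Steap1 and Steap4.

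All 8 compared genes of iron sensing, storage and chaperones were within 2-fold in each of the 3 comparisons, with log2 ratios from -0.29 to 0.15 in HIOP over CTL. They include Ireb2 and Aco1, which encode the iron regulatory proteins, Fbxl5, which marks the first of these for destruction when iron is plentiful, and Ncoa4, which delivers ferritin for breakdown. Ireb2 had 1610 counts in HIOP_GSK, 1714 in HIOP and 1562 in CTL, and Ncoa4 had 2009, 2063 and 1747 counts in the same libraries. Messages of the sensors thus differed less between libraries than those of Fth1, Ftl1 and Slc11a2. The 15 genes for mitochondrial iron and iron-sulfur clusters had a median log2 ratio of 0.11 in HIOP over CTL. None was called lower, where 8.04% of all genes were, and 1 (6.67%) was called higher, where 9.0% were. That gene was Slc25a37, mitoferrin-1, at 2.64-fold (2.01 to 3.5), which was inside the limit with the deposited TPM, at a log2 ratio of 0.90. Slc25a37 is used heavily by red blood cell precursors, and the red blood cell list summed to 140 CPM in HIOP_GSK, 297 CPM in HIOP and 132 CPM in CTL. In that list 4 of 5 compared genes were called higher in HIOP than in CTL, and Ahsp was at 0 counts in HIOP_GSK. Slc4a1, among the 4, reached a CPM of 1 in HIOP alone, so its call follows in part from how it was kept. The part of blood in the Slc25a37 value was not tested.

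In the list of heme handling and iron-scavenging proteins, 3 of 13 genes (23.1%) were called higher and 1 (7.69%) called lower in HIOP than in CTL. Among all genes these shares were 9.0% and 8.04%, and the list's median log2 ratio was -0.05. Hmox1, which releases iron from heme, had 358 TPM in HIOP_GSK, 213 TPM in HIOP and 1.90 TPM in CTL. Hmox2, the constitutive form of that enzyme, had 28.4 TPM in HIOP_GSK, 26.9 TPM in HIOP and 33.0 TPM in CTL. Lcn2, lipocalin-2, which binds iron-carrying siderophores, had 751 TPM in HIOP_GSK, 847 TPM in HIOP and 27.0 TPM in CTL. Cd163, the macrophage receptor for hemoglobin bound to haptoglobin, had 148 counts in HIOP_GSK, 49 in HIOP and 10 in CTL. It stood 3.40-fold above HIOP in HIOP_GSK (2.44 to 4.80) and was 4.61-fold higher in HIOP than in CTL (2.31 to 10.2), next to the sums of the microglia and macrophage list given above. Flvcr2 was 2.03-fold lower in HIOP than in CTL (1.51 to 2.76), a call that ended with the deposited TPM, with DESeq2 size factors and with a prior count of 10.

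**Figure D4:**
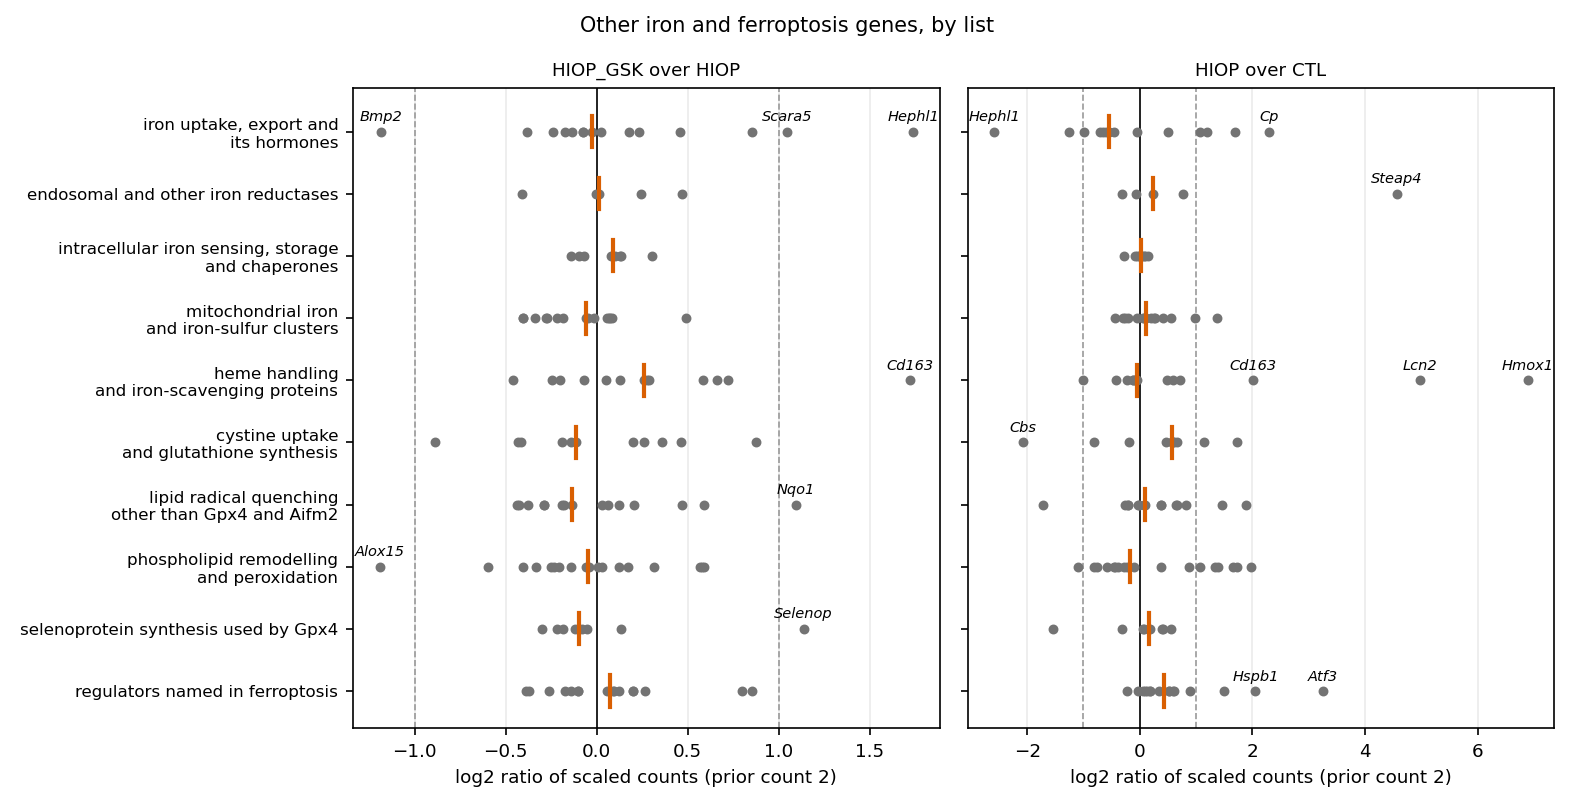
Log2 ratio of scaled counts for 125 other iron and ferroptosis genes for HIOP_GSK over HIOP and for HIOP over CTL, 1 point per gene, arranged by list, with an orange bar at each list's median and dashed lines at 2-fold. Gene names mark the named genes past 2-fold in HIOP_GSK over HIOP and past 4-fold in HIOP over CTL, and the sensing and storage list stays inside the dashed lines in both.

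Of 11 genes for cystine uptake and glutathione synthesis, which supply Gpx4 with its reducing agent, 2 (18.2%) were called higher and 1 (9.09%) called lower in HIOP than in CTL. Among all genes these shares were 9.0% and 8.04%, and the list's median log2 ratio was 0.58. Slc7a11, the cystine transporter subunit whose block triggers ferroptosis, had 2917 counts in HIOP_GSK, 6084 in HIOP and 2599 in CTL. It was 2.20-fold higher in HIOP than in CTL (2.10 to 2.31), although the log2 ratio with the deposited TPM was 0.97. HIOP alone stood high, while HIOP_GSK lay near CTL. Txnrd1, a thioredoxin reductase, was 3.33-fold higher in HIOP than in CTL (3.09 to 3.59), with 2068 counts in HIOP_GSK, 3103 in HIOP and 876 in CTL. Cbs, of the transsulfuration route to cysteine, had 13 counts in HIOP_GSK, 7 in HIOP and 34 in CTL and was 5.17-fold lower in HIOP than in CTL (2.25 to 13.8). Cbs reached a CPM of 1 in CTL alone, so its call follows in part from how it was kept.

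Among 15 other genes that quench lipid radicals or make the quenchers, 2 (13.3%) were called higher and 1 (6.67%) called lower in HIOP than in CTL. Over all genes these shares were near, at 9.0% and 8.04%, and the list's median log2 ratio was 0.09. Mgst1, a microsomal glutathione transferase, had 235 counts in HIOP_GSK, 356 in HIOP and 89 in CTL, a ratio of 3.76 in HIOP over CTL (2.97 to 4.80). Nqo1, a quinone reductase, had 258 counts in HIOP_GSK, 135 in HIOP and 45 in CTL. It stood 2.15-fold above HIOP in HIOP_GSK (1.74 to 2.67) and was 2.82-fold higher in HIOP than in CTL (2.0 to 4.05), the same order of libraries as Fth1 and Ftl1. Mgst1, Slc7a11 and Txnrd1 were instead highest in HIOP. How many of all genes share either order was not counted. Ttpa, a vitamin E transfer protein, had 5 counts in HIOP_GSK, 5 in HIOP and 20 in CTL and was 4.25-fold lower in HIOP than in CTL (1.55 to 14.5). Ttpa reached a CPM of 1 in CTL alone, so its call follows in part from how it was kept. Gch1, which leads to tetrahydrobiopterin, and Dhodh, which reduces ubiquinone in mitochondria, were within 2-fold, with 87 and 183 counts in HIOP_GSK, 128 and 235 in HIOP and 75 and 207 in CTL.

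Of 18 genes for phospholipid remodelling and peroxidation, 6 (33.3%) were called higher and 1 (5.56%) called lower in HIOP than in CTL. Among all genes these shares were 9.0% and 8.04%, and the list's median log2 ratio was -0.17. Mboat1, a lysophospholipid acyltransferase, was 4.07-fold higher (2.94 to 5.73) and Acsl5, of the same enzyme family as Acsl4, 3.35-fold higher (2.77 to 4.07). Ptgs2, a cyclooxygenase gene often used as a marker in ferroptosis studies, was 3.16-fold higher (2.66 to 3.77). Scd2, a desaturase that makes monounsaturated fatty acids, had 8090 counts in HIOP_GSK, 6060 in HIOP and 12150 in CTL and was 2.13-fold lower in HIOP than in CTL (2.07 to 2.20). Alox15, a lipoxygenase that oxidises polyunsaturated fatty acids, had 18 counts in HIOP_GSK, 49 in HIOP and 17 in CTL. It was 2.42-fold lower in HIOP_GSK than in HIOP (1.38 to 4.41), inside the limit with the deposited TPM and with a prior count of 10.

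The 9 genes of selenoprotein synthesis, on which Gpx4 depends, had a median log2 ratio of 0.17 in HIOP over CTL. None was called higher, where 9.0% of all genes were, and 1 (11.1%) was called lower, where 8.04% were. That gene was Selenop, the selenium carrier, with 219 counts in HIOP_GSK, 111 in HIOP and 307 in CTL. It was 2.94-fold lower in HIOP than in CTL (2.36 to 3.69) and stood 2.22-fold above HIOP in HIOP_GSK (1.76 to 2.81). Of 16 regulators named in ferroptosis, 3 (18.8%) were called higher in HIOP than in CTL and none called lower (median 0.42). Among all genes these shares were 9.0% and 8.04%. The 3 included Atf3 at 9.62-fold (8.0 to 11.7) and Hspb1 at 4.25-fold (3.21 to 5.69). Nfe2l2, which encodes the antioxidant factor NRF2, had 47.9 TPM in HIOP_GSK, 25 TPM in HIOP and 14.7 TPM in CTL. It was chosen for mention after its values were seen.

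Genes with the most similar pattern were sought for the members at the ends of HIOP over CTL, by distance on the pair of log2 ratios HIOP over CTL and HIOP_GSK over HIOP among 12345 named genes. For Steap1 the nearest were Kremen1, a coreceptor in Wnt signalling, Ass1, an enzyme of arginine synthesis, Naa35 and the phosphatase gene Dusp5, at distances of 0.019 to 0.053. Kremen1 had 2514 counts in HIOP_GSK, 3176 in HIOP and 677 in CTL, and 7 genes lay within a distance of 0.1 of Steap1. Steap1 itself had 53 counts in CTL and an interval of 3.33 to 6.16 in HIOP over CTL, so counting error exceeds these distances. For Tf the nearest included Trim13, Prelid2 and Armcx6, at 0.0036 to 0.026, and 40 genes lay within 0.1. Trim13 had only 79 counts in HIOP_GSK, 65 in HIOP and 97 in CTL, so counting error exceeds such distances. In HIOP_GSK over HIOP the log2 ratio of Prelid2 ranged from -0.04 to 0.47 under the alternatives and changed direction in 1. These patterns rest on 3 libraries.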

How the data were processed

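The deposited counts are whole numbers per gene, not normalized, and the deposited TPM values sum to 1e+06 per library, per the file headers and values. The build Rnor_6.0, RSEM 1.3.1 and STAR 2.5.4b are named, without roles, per the submitters' processing notes. Overlapping and antisense genes are uncertain, since the strand setting is not given in the sources used here. The counts and TPM do not always match: 503 to 566 genes per library with 20 counts or more were listed at 0 TPM. They may come from different quantifications, which the tools named without roles do not settle. From the counts, TMM factors (edgeR 4.0.16, R 4.3.3) of 1.01 for HIOP_GSK, 0.994 for HIOP and 1.00 for CTL gave CPM, genes reaching a CPM of 1 in any library were kept, and log2 ratios used a prior count of 2. Folds carry Clopper-Pearson intervals (scipy 1.17.1). Without molecular identifiers, reads can be copies of 1 molecule, so intervals and floors cover counting error only. Functions were tested on simulated counts. Alternatives were other scalings (DESeq2 1.42.0 among them), the TPM, filters, prior counts and a 1.5-fold limit.

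Members and lists were chosen with earlier results of these data known. Named genes are all members and, per pathway list, up to 3 past 2-fold in each direction and comparison, by the interval bound nearer to no difference. Other genes give contrast within a list and were chosen after their values were seen. Of 138 pathway entries, 136 matched by symbol, 1 by a synonym, and 1 was not analysed here. Of 108 marker entries in 11 lists, 103 matched, 4 of them by a synonym. Some genes that the rules name are not reported here.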

Additional observations from a re-analysis of the deposited data

How the results depend on the processing

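No paired analysis was possible because each group has 1 library. No value here has a replicate, and depth limits Aifm2 and Steap1 most. The log2 ratios of the 9 members kept their direction under every alternative except 2 values inside the limit in HIOP_GSK over HIOP, with ranges of -0.15 to 0.05 for Steap1 and -0.06 to 0.01 for Aifm2. At the 2-fold limit, 1 member call ended, Fth1 in HIOP over CTL with the deposited TPM (0.83). Adding the ferritin-like loci, chosen after seeing the data, left both ferritin genes on their side of the limit. This setting could change little, because Fthl17e, added to Fth1, held 0 counts and each locus added to Ftl1 held 18 or fewer per library. Ferritin loci without a row could not be added, so the uncertain split of reads was not tested.

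Counts past the limit that moved by over 1.5 times are as follows, and the cause was not tested beyond the construction of each setting. With the deposited TPM, lower pathway genes were 1 in HIOP_GSK over HIOP and 1 in HIOP_GSK over CTL (4 before). Without the filter, all genes lower in HIOP over CTL were 2113, those in HIOP_GSK over HIOP were 1448 higher and 711 lower, and those in HIOP_GSK over CTL were 2534 higher and 1826 lower. With a filter at CPM 5 the same counts were 773, then 336 and 114, then 1055 and 594, and lower pathway genes were 1 in HIOP_GSK over HIOP and 2 in HIOP_GSK over CTL. With a prior count of 10, all genes lower in HIOP_GSK over HIOP were 153, and lower pathway genes were 1 there and 2 in HIOP_GSK over CTL.

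At a limit of 1.5-fold, 2 members were higher in HIOP_GSK over HIOP, 5 were higher in HIOP_GSK over CTL and 1 (Tf) was lower in HIOP over CTL. Pathway genes were then 13 higher and 4 lower in HIOP_GSK over HIOP, 30 and 15 in HIOP_GSK over CTL, and 35 and 14 in HIOP over CTL. All genes were 1504 higher and 749 lower, 2739 and 2585, and 2508 and 2733 in the same comparisons.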
